A study of Mus musculus with 2 samples.

Results

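The genes described here control the making of plasmin and the start of blood clotting, and they were examined in mouse hearts early after myocardial infarction (MI). They were 9 genes chosen by name: Plau, Plaur, Plat, Serpine2, Serpinb2, F3, Thbd, Procr and Tfpi. Their members on the array were the probe sets annotated with 1 of these symbols and no other, which gave 13 of 45101 probe sets for 8 of the 9 genes. Serpine2 had no such probe set, so its expression was not analysed here and only its upstream sequence was searched for motifs. The hearts came from male C57BL/6J mice, 10 weeks old, and were taken 3 days after the left anterior descending coronary artery had been permanently ligated or after a sham operation without ligation. RNA from 3 whole hearts was pooled in each group and hybridised to 1 GeneChip mouse genome array, so that there were 2 arrays and no replicates. Infarcted and remote muscle were not separated. No test between the groups was therefore possible, and each difference given compares a single infarct pool with a single sham pool.

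Plasmin is the protease that dissolves fibrin, and it also cleaves matrix proteins and activates other proteases. It is cut from plasminogen, a plasma protein of the liver, by either of the activators uPA (gene Plau) and tPA (Plat). uPA works at the cell surface on its receptor uPAR (Plaur), and inhibitors of the serpin family hold both activators back. Clotting starts when tissue factor (F3) meets factor VII, and TFPI (Tfpi) blocks that complex. The thrombin that is formed is turned into an anticoagulant enzyme by thrombomodulin (Thbd), since thrombin on this receptor activates protein C, which the endothelial protein C receptor EPCR (Procr) presents to it. In the heart, tPA, thrombomodulin, TFPI and EPCR are best known from the endothelium, tissue factor from cardiomyocytes and vessel walls, and uPAR and the activator inhibitor PAI-2 (Serpinb2) from leukocytes.

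The upstream sequences of Procr, Plaur and F3 are shown because these genes had the largest differences in either direction among the members and because the same short motif occurred in all 3. Each is the stretch of 250 bases before the annotated start of transcription, from RefSeq (GRCm38.p6), 5′ to 3′ on the coding strand, with motif matches in capitals. The capitals mark an AP-1 motif (TGAGTCA or its reverse complement TGACTCA), SP1 motifs (GGGCGG or CCGCCC) and, in Plaur, an EGR1 motif (GCGNGGGCG) that overlaps SP1 motifs.
Procr, chr2:155750967-155751216, plus strand: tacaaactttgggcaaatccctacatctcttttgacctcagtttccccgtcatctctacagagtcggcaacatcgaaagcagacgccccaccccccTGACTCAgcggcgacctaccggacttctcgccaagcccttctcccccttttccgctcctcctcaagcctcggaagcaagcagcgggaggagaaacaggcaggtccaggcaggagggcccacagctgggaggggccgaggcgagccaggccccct
Plaur, chr7:24462233-24462482, plus strand: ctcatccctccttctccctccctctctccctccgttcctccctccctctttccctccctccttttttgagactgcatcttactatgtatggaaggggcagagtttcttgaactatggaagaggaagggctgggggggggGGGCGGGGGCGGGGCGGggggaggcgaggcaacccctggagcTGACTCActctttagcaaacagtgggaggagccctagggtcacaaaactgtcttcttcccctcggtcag
F3, chr3:121723287-121723536, plus strand: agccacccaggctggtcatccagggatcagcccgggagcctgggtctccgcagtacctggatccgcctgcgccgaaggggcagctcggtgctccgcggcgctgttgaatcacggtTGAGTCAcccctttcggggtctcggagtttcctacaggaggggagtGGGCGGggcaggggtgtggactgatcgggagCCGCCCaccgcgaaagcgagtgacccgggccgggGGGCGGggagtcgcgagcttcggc

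The AP-1 motif began 154 bases before the start site in Procr, 69 bases before it in Plaur and 135 bases before it in F3. Of the 8 upstream windows matched for 6 of the genes by symbol, these 3 held it, against 4.46% of all 32851 windows of the same length. The motif was singled out of 5 searched because these windows held it, and Serpinb2 and Tfpi count with 2 windows each. No enrichment is therefore read from this count. The 6 genes include Serpine2, which has no expression value here, and Plau, Plat and Thbd had no window. SP1 motifs, found in 32.7% of all windows, occurred in 5 of the 8, and the EGR1 motif (4.70% of all) in Plaur and Serpine2. The letters TATAAA (12.4% of all, both strands) lay 29 bases before the start in 1 of 2 overlapping windows of Serpinb2, which share this site, and 127 bases before it in 1 of 2 windows of Tfpi. The NF-kB motif was in none of the 8 windows and in 7.25% of all. Motifs were searched on both strands, and a match describes these letters only: among the 3 genes with the AP-1 motif, Procr and Plaur were higher in the infarct pool and F3 was lower.

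Values are RMA values on the log2 scale, in which a difference of 1 is 2-fold, and differences are infarct minus sham. For a gene with several probe sets, the one with the highest mean value stood for it, and a gene was compared if that value reached the array median (6.36 sham, 6.35 infarct) in at least 1 pool. This left 7 of the 8 genes, and 11961 of 18193 genes overall. The disagreement between probe sets of the same gene had an SD of 0.23 in the log2 difference, pooled over 5190 genes. This spread is that of probes and says nothing of the mice, and precision is limited by having 1 array per pool. Markers fitted the labelled tissue: all 10 cardiomyocyte markers were measured, at 13.01 to 14.85 in the sham pool, with Myh6 at 14.85, Tnnt2 at 14.62 and Actc1 at 14.83.

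Procr and Plaur exceeded a 2-fold difference towards the infarct pool, Plat and Serpinb2 were higher by less, and F3, Tfpi and Thbd were lower. Thus, 2 of the 7 genes were at least 2-fold higher, where the share over all genes compared was 3.73%, and 0 were at least 2-fold lower, where it was 1.26%. The median difference of the 7 genes was 0.47 and that of all genes compared was 0.00. The members therefore did not lie on 1 side: 4 were above 0 and 3 below, while 49.5% of all genes were above 0 and 49.8% below. At a log2 difference of 1.4, Procr alone was higher (1.49% of all genes) and no member was lower (0.284% of all genes). The members were chosen with earlier results of these data known, so no enrichment is read from these counts. In whole hearts, fewer cells of a type and less RNA per cell cannot be told apart.

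**Figure D1:**
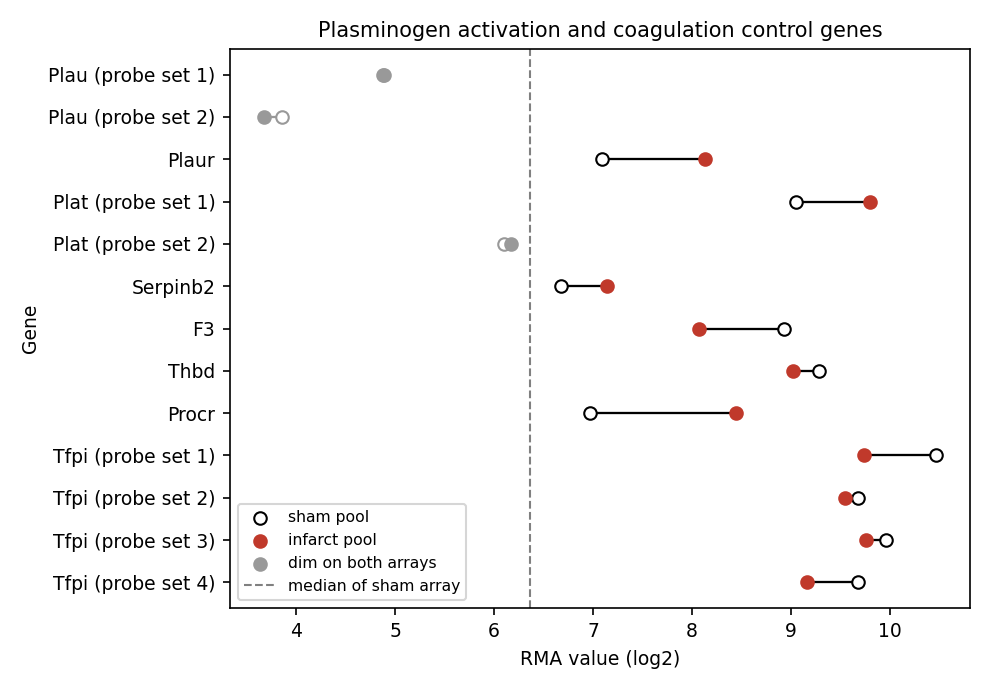
RMA values (log2, horizontal axis) of the 13 member probe sets of sham hearts (open circles) and infarcted hearts (filled circles), pooled, 1 array each, with no error bars because there were no replicates. Grey marks probe sets below the array median (dashed line, sham array) in both pools. Procr and Plaur lay to the right in the infarct pool by 1.47 and 1.04, and all 4 probe sets of Tfpi lay to the left, by 0.13 to 0.73.

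Among the activators, the gene of tPA was higher in the infarct pool and the gene of uPA gave little signal. Plat had 9.05 in the sham pool against 9.80 in the infarct pool, a difference of 0.75 (1.68-fold). Of all genes compared, 7.07% had a higher difference. A further probe set of Plat, at 6.10 and 6.17, was below the median of both arrays and differed by 0.065. The mean over both was 0.41, so that the size of the difference rests on the brighter probe set.

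Plau was not compared. In sham hearts its probe sets were at 4.88 and 3.85, and in infarcted hearts at 4.89 and 3.67, all below the array medians, with differences of 0.010 and -0.18. These values are too dim to say whether the uPA gene differed.

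Plaur, whose product holds uPA at the surface of the cell, had 7.09 in the sham pool against 8.14 in the infarct pool. The difference was 1.04 (2.06-fold), and 408 of the 11961 genes had a higher one. It was thus just past 2-fold, and it rests on 1 probe set. It was 0.99 when the arrays were centred on the added poly-A control transcripts and 0.66 when they were centred on housekeeping genes. The receptor gene was therefore above the array median in both pools, whereas Plau, the gene of its ligand, was below it. No call of presence or absence was made.

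Serpinb2, which encodes PAI-2, an inhibitor of uPA and tPA, had 6.67 in the sham pool against 7.14 in the infarct pool. The difference was 0.47 (1.39-fold), a size exceeded by 13.7% of the genes compared. Both values were close to the array median, by 0.31 above it in sham hearts and 0.80 in infarcted hearts. Centring on the housekeeping genes left a difference of 0.095, less than the SD between probe sets.

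F3, the gene of tissue factor, the initiator of clotting, had the lowest difference of the members. It had 8.93 in the sham pool against 8.07 in the infarct pool, a difference of -0.86 (1.81-fold lower). Only 2.16% of all genes compared lay below it. The gene has 1 probe set.

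Tfpi, which encodes the inhibitor of the tissue factor complex, was lower as well. Its brightest probe set had 10.47 in the sham pool against 9.74 in the infarct pool, a difference of -0.73 (1.66-fold lower). The remaining probe sets went from 9.68 to 9.16 (-0.52), from 9.97 to 9.76 (-0.20) and from 9.68 to 9.55 (-0.13). All 4 were below 0, with a mean of -0.40 and an SD of 0.28 between them, so that the direction was shared and the size was not. The probe sets at -0.20 and -0.13 were within the pooled SD of 0.23 from 0.

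The receptors that turn thrombin to the protein C pathway went apart. Procr, the gene of EPCR, had 6.97 in the sham pool against 8.44 in the infarct pool, a difference of 1.47 (2.77-fold), the highest of the members. Of all genes compared, 151 (1.26%) were higher. The value rests on 1 probe set, whose identifier ends in _s_at and marks probes that can bind several transcripts. Thbd, the gene of thrombomodulin, had 9.28 in the sham pool against 9.02 in the infarct pool, a difference of -0.26 (1.20-fold lower), close to the SD between probe sets. It was 0.055 after centring on the hybridisation controls.

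In the order of their differences, Procr (1.47) was followed by Plaur (1.04), Plat (0.75), Serpinb2 (0.47), Thbd (-0.26), Tfpi (-0.73) and F3 (-0.86). The SD expected of a gap between probe sets of different genes, from the pooled SD, was 0.32. Plaur and Plat were 0.30 apart, Plat and Serpinb2 0.27, and Tfpi and F3 0.13, so that these neighbours were not separated beyond the probe spread. The gap from Procr to Plaur was 0.43, that from Serpinb2 to Thbd was 0.74 and that from Thbd to Tfpi was 0.46. A gap larger than this SD does not by itself settle an order. The last gap is that of the brightest probe set of Tfpi, while its probe sets at -0.20 and -0.13 lay above Thbd.

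**Figure D2:**
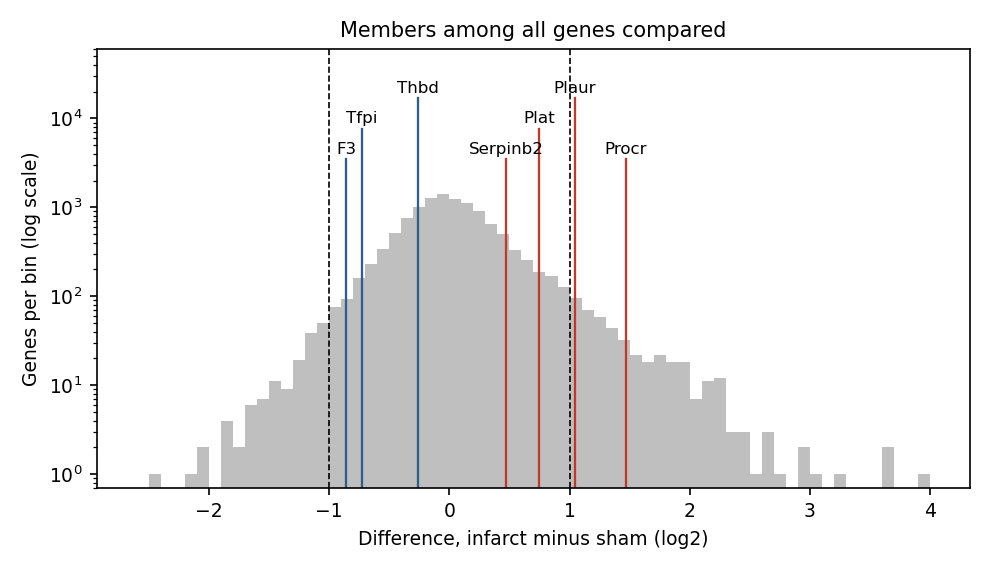
Number of genes per bin of 0.1 (vertical, log scale) by log2 difference, infarct minus sham (horizontal), for 11961 genes, with the 7 compared members as red (higher) and blue (lower) lines and 2-fold as dashed lines. Procr (1.47) and Plaur (1.04) lay past 2-fold, and F3 (-0.86) and Tfpi (-0.73) lay near the lower end but short of it.

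The size of these differences changed with the features on which the arrays were centred. The 9 housekeeping genes measured had a mean difference of 0.38, with single genes from -0.44 to 1.12, and the hybridisation controls, added transcripts, had one of -0.32. That of the poly-A controls was 0.057. The right choice among them was not tested. Centring on the housekeeping genes moved the median of all genes to -0.38 and gave 1.09 for Procr, -1.24 for F3 and -1.11 for Tfpi. Thus 1 member was past 2-fold higher and 2 past 2-fold lower, where 188 and 655 of all 11961 genes were. Centring on the hybridisation controls moved the median of all genes to 0.32 and gave 1.79 for Procr, 1.36 for Plaur and 1.06 for Plat, with F3 at -0.54 and Tfpi at -0.41. At that zero, 962 of all genes were past 2-fold higher and 40 past 2-fold lower. Under each of the 6 scalings tried, Procr stayed past 2-fold higher, Plaur, Plat and Serpinb2 stayed above 0, and F3 and Tfpi stayed below 0. Thbd alone changed sign.

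**Figure D3:**
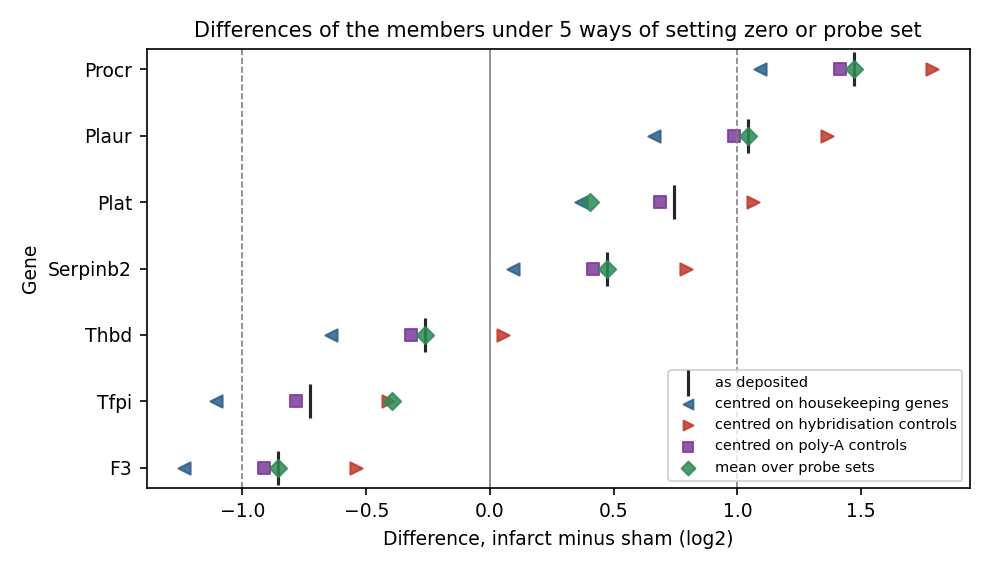
Log2 difference, infarct minus sham (horizontal), of the 7 compared members with the values as deposited (black bars), after centring on 3 sets of reference features, and as the mean of all probe sets per gene. Procr stayed between 1.09 and 1.79 and F3 between -1.24 and -0.54, and Plaur, Plat, Tfpi and F3 crossed a dashed 2-fold line in at least 1 setting.

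Other genes of the same pathways were taken from lists of 49 genes, of which 44 had a probe set and 22 were bright enough to be compared. Of these, 18 were above 0 (49.5% of all genes), 4 were at least 2-fold higher (3.73% of all) and 0 were at least 2-fold lower (1.26% of all). Their median was 0.55. These lists and those of the cell type markers were chosen with earlier results of these data known. No enrichment is therefore read from their counts. As 3 of the 22 passed the filter only through the infarct pool, where they were high, the counts over the 19 bright in the sham pool were 15 above 0 and 3 at least 2-fold higher. With the housekeeping genes as zero, 15 of the 22 were above 0, 2 were 2-fold higher and 1 was 2-fold lower, and the median was 0.17, where that of all genes was -0.38. Of all 11961 genes, 2146 were then above 0, 188 were 2-fold higher and 655 were 2-fold lower. With the hybridisation controls as zero, 21 of the 22 were above 0 and 9 were 2-fold higher, where 9801 and 962 of all 11961 genes were.

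In the plasminogen system, 8 of 11 genes were above 0 (49.5% of all genes), and Lrp8, Anxa2 and S100a10 were past 2-fold (3.73% of all). Lrp8 and Serpinb8 passed the filter only through the infarct pool. Of the 9 genes bright in the sham pool, 6 were above 0 and 2 past 2-fold. With the housekeeping genes as zero, 6 of 11 were above 0, 1 was past 2-fold higher and 1 past 2-fold lower. The counts over all 11961 genes were then 2146, 188 and 655. Anxa2 encodes annexin A2, which with its partner S100A10 assembles plasminogen and tPA on the cell. Anxa2 had 11.76 in the sham pool against 13.04 in the infarct pool (difference 1.28), although its 3 probe sets ran from -0.33 to 1.28. S100a10 had 10.28 and 11.39 (1.11), with 3 probe sets from 0.00 to 1.14. Lrp8, which encodes a lipoprotein receptor, had 5.78 and 7.64 (1.86), with 3 probe sets from 0.22 to 1.94. It was dimmer than the median in the sham pool and entered the comparison only through the infarct pool, so that it had to differ. Of the remaining genes, the scavenging receptor gene Lrp1, which removes complexes of activators with their inhibitors, differed by 0.42, and Mrc2, whose product associates with uPAR, by 0.75. The other probe set of Lrp1 differed by 1.01. Serpinb6a (0.59), Serpinb8 (0.35, dim in the sham pool) and Serpini1 (-0.0076) encode further serpins, and the gene of the plasmin inhibitor, Serpinf2, differed by 0.18. The 3 probe sets of Serpini1 ran from -0.60 to -0.0076, and the 2 of Serpinb8 from 0.090 to 0.35. Plgrkt, a plasminogen receptor gene, differed by -0.10. Vtn, which encodes vitronectin, the matrix protein that binds uPAR, was the lowest, with 8.75 in the sham pool against 7.97 in the infarct pool (-0.79). The gene of plasminogen itself, Plg, was below the median of both arrays (4.68 and 4.62).

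Most clotting factor genes gave little signal in the heart, and those that were measured were not 2-fold different in the values as deposited. Of 19 genes, 13 were below the median of both arrays. F7, the gene of factor VII, the partner of tissue factor, had 5.78 in the sham pool against 6.72 in the infarct pool (0.94), from a dim value. Vkorc1, of the vitamin K cycle, differed by 0.61, and Ggcx, whose enzyme uses that vitamin to modify clotting factors, by -0.097. The other probe set of Ggcx differed by 0.093. The gene of the prothrombinase-like protein Fgl2 differed by 0.52, that of the factor XIII subunit F13a1 by 0.38 and that of von Willebrand factor, Vwf, an endothelial product, by 0.19. The median of the 6 was 0.45, with F7 included although it entered only through the infarct pool. This median was 0.072 with the housekeeping genes as zero. With the hybridisation controls as zero, 1 of the 6 passed 2-fold higher, where 962 of all 11961 genes did.

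Outside the members, the 4 anticoagulant genes bright enough to be compared were all higher in the infarct pool. Tfpi2, which encodes a matrix-bound relative of TFPI that inhibits plasmin, had 6.83 in the sham pool against 8.48 in the infarct pool, a difference of 1.65 (3.14-fold). It thus stood opposite to Tfpi, which was lower at all 4 probe sets. Anxa5, the gene of annexin A5, which covers the phospholipids that clotting needs, differed by 0.85, Entpd1, whose enzyme breaks down ATP and ADP, by 0.83, and Pros1, the gene of the protein C cofactor protein S, by 0.41. All 4 stayed above 0 under each scaling. Of all 11961 genes, 2146 were above 0 with the housekeeping genes as zero and 9801 with the hybridisation controls. Proc, the gene of protein C, the ligand of EPCR, was dim on both arrays (5.30 and 5.16). Of the thrombin receptor genes, only F2r was bright enough, with 10.95 in the sham pool against 11.75 in the infarct pool (0.80).

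**Figure D4:**
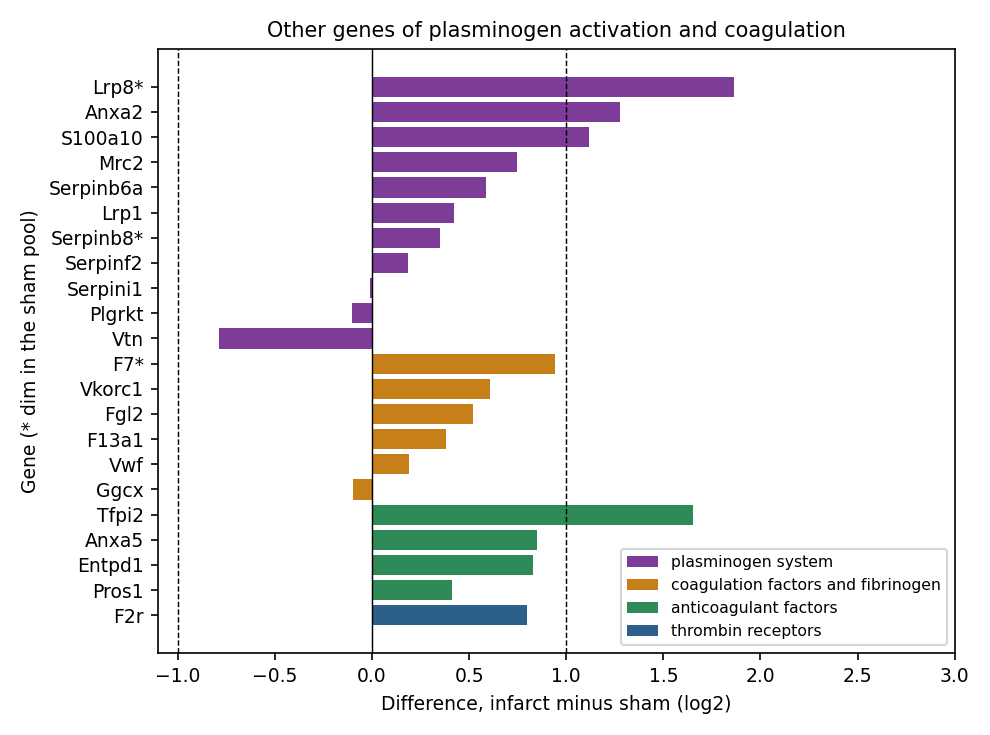
Log2 difference, infarct minus sham (bars, horizontal), of the 22 compared genes of the plasminogen system, the clotting factors, the anticoagulant factors and the thrombin receptors, 1 array per pool and no error bars, with 2-fold as dashed lines and genes dim in the sham pool starred. Lrp8 (1.86), Tfpi2 (1.65), Anxa2 (1.28) and S100a10 (1.11) lay past 2-fold, and Vtn (-0.79) was lowest.

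Markers of other cell types differed beside the members. All 12 monocyte and macrophage markers were higher in the infarct pool (median 0.88), and 5 passed 2-fold; centring on the housekeeping genes left 11 of them above 0 and 1 past 2-fold, and centring on the hybridisation controls gave 7 past it. Their values ran from 7.38 to 12.71 in the sham pool and from 8.80 to 13.23 in the infarct pool, with differences of 1.24 for Cd68, 0.47 for Adgre1 and 0.23 for Csf1r. Of the 8 neutrophil markers with a probe set, 5 were bright enough, with a median of 1.11, and 3 passed 2-fold, namely S100a8 (1.72), S100a9 (1.54) and Csf3r (1.11). Cxcr2, 1 of the 5, was dim in the sham pool and entered only through the infarct pool. With the housekeeping genes as zero, 2 of the 5 passed 2-fold. Over all genes compared, 49.5% were above 0 and 3.73% passed 2-fold higher as deposited. With the housekeeping genes as zero, 2146 of 11961 were above 0. The count past 2-fold higher was then 188, and it was 962 with the hybridisation controls. Of the 10 fibroblast markers, 6 were above 0 and 4 below (median 0.20), with Postn (1.28) and Thy1 (1.09) past 2-fold higher and Dpt lowest (-0.35). With the housekeeping genes as zero, 4 were above 0 and 0 were past 2-fold. The part of these cells in the differences of Plaur, Serpinb2 or Procr was not tested.

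The 12 endothelial markers had values of 8.20 to 10.62 in sham hearts and 8.60 to 10.71 in infarcted hearts. Of the 12, 9 were above 0 (49.5% of all genes), and the median was 0.23. This median was -0.15 after centring on the housekeeping genes. Pecam1 differed by 0.56, Cdh5 by 0.24 and Tie1 by 0.075, and the 12 markers ran from -0.26 to 0.67. Procr differed by 1.47, Plat by 0.75, Thbd by -0.26 and Tfpi by -0.73. Of the 8 mesothelial and epicardial markers, 7 were lower in the infarct pool (49.8% of all genes), with a median of -0.55. Msln differed by -0.97, Upk3b by -1.33 and Wt1 by -0.25. As deposited, 2 of the 8 were at least 2-fold lower (1.26% of all genes). With the housekeeping genes as zero, 4 were, where 655 of all 11961 genes were. When the hybridisation controls set the zero, 5 of the 8 were below 0, where 2160 of all 11961 genes were. The values of the 8 markers ran from 7.12 to 9.004 in the sham pool and from 6.47 to 8.30 in the infarct pool. Cardiomyocyte markers had a median of -0.14 over 10 genes at their brightest probe sets, 9 of them below 0 (49.8% of all genes). With the hybridisation controls as zero, 2 of the 10 were below 0, where 2160 of all 11961 genes were. Several of these brightest probe sets, such as those of Myh6, Actc1 and Myl2 (14.84 in the sham pool), lay close to the highest value of either array. Dimmer probe sets gave lower values, down to -0.85 for Ttn, -0.67 for Myh6, -0.66 for Ryr2 and -0.60 for Tnnt2. The 10 smooth muscle and pericyte markers went both ways, 5 above 0 and 5 below (median -0.0057). They ran from -0.93 for Abcc9, -0.77 for Myh11, -0.66 for Kcnj8 and -0.58 for Rgs5 to 0.54 for Acta2 and 0.80 for Tagln. The 3 probe sets of Acta2 ran from -0.29 to 0.54, so that its direction depends on the probe set. Those of Myh11 ran from -0.77 to -0.18, those of Rgs5 from -0.72 to -0.30 and those of Abcc9 from -1.25 to -0.93. With the housekeeping genes as zero, 8 of the 10 markers were below 0, as were 9815 of all 11961 genes. The part of any of these cells in the higher values of Procr and Plat or in the lower values of F3, Tfpi and Thbd was not tested. Platelet markers had a median of -0.057 over 6 genes, with Pf4 at 1.04, Ppbp at 1.83 (dim in the sham pool) and Itga2b at -0.11.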

How the data were processed

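The authors froze the hearts, extracted total RNA with ISOGEN and an RNeasy kit, pooled 3 hearts per group and hybridised biotinylated cRNA to 1 array per pool. The deposited values are, per the labels, RMA values on the log2 scale (2.95 to 14.90): background corrected, normalized between the arrays and summarised to 1 value per probe set. For the RMA software and its version, nothing is given in the sources used here. RMA gives both arrays nearly the same distribution, so that a difference in total mRNA cannot be seen. No scanner file was used.

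Probe sets were named through the platform annotation, with 34945 having 1 symbol, 932 several and 9160 none, besides 64 control probe sets. All 13 member probe sets matched RefSeq genes of GRCm38.p6 by Entrez identifier, and 0 symbols differed. None of the probe sets with several symbols named a member. No genome build goes with the array. With 1 array per group no p-value was computed. Genes were counted at a log2 difference of 1 or, as an alternative, of 1.4. Alternatives for scaling were centring on the medians, on 9 housekeeping genes, on 18 hybridisation or on 24 poly-A control probe sets, quantile normalization and removal of a loess trend (span 0.4). Others were the mean over probe sets, leaving out probe sets ending in _x_at or _s_at, no filter, and a filter at the 75th percentile. Named genes were all members, any compared gene of the pathway lists and the first 3 genes of marker lists. Genes named outside this rule, in the accounts of markers and of dim signal, were chosen after their values were seen. The members and lists were chosen with earlier results of these data known. The procedure was tested on simulated data, in which the shifts added lay well past the threshold and no variation between mice was included. That test checks the code only and does not bear on values near 2-fold. Python 3.11.15 was used with numpy 2.4.6, pandas 2.3.3, scipy 1.17.1, statsmodels 0.14.6 and matplotlib 3.10.9.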

Additional observations from a re-analysis of the deposited data

How the results depend on the processing

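The count of members at least 2-fold higher (2) was 1 after centring on the housekeeping genes or on the poly-A controls, without probe sets ending in _x_at or _s_at, with the filter at the 75th percentile and at a log2 difference of 1.4. It was 2 or 3 under the other alternatives. The count of those 2-fold lower (0) was 2 after centring on the housekeeping genes and 0 elsewhere. Of all 11961 genes, 446 were 2-fold higher as deposited, 188 with the housekeeping genes, 391 with the poly-A controls and 962 with the hybridisation controls. Those 2-fold lower were 151 as deposited and 655 with the housekeeping genes. The median difference (0.47) was 0.095 after centring on the housekeeping genes, 0.79 after centring on the hybridisation controls, 0.11 without _x_at and _s_at probe sets, 0.24 without a filter and -0.26 with the filter at the 75th percentile, which left 5 genes and took out Plaur and Serpinb2. The mean of the members in place of their median was 0.27. The changes of the median under both centrings follow from the offset subtracted, and those under the other settings from the genes entered. Averaging the probe sets of a gene moved Plat to 0.41 and Tfpi to -0.40. With 1 array per group no sample could be left out. No paired analysis was possible because each group had 1 pool and no test was made.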

Other observations

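Several genes of clotting proteins that the liver makes gave low values in both hearts, although F7 and Pros1 were bright enough to be compared. The fibrinogen chain genes Fga, Fgb and Fgg had 3.88, 4.77 and 4.83 in sham hearts and 3.60, 4.61 and 4.51 in infarcted hearts, and the prothrombin gene F2 had 4.63 and 5.10. Of the 8 liver markers, 4 were below the median of both arrays, among them Alb, the gene of albumin (4.63 and 4.56). The other 4 were above it in at least 1 pool, with Cyp2e1 at 8.10 and 6.92, Ttr at 7.13 and 7.23, Ahsg at 6.69 in both pools and Apoa2 at 6.39 and 6.13. The values of the fibrinogen genes and F2 were below the array medians, so no difference is read from them. F10, the gene of factor X, had 5.63 in the sham pool against 6.21 in the infarct pool, just below the filter, and its 3 probe sets ran from -0.12 to 0.89. Serpinc1, the gene of antithrombin, had 5.35 and 4.95. These genes were named after their values were seen.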
